A study of Mus musculus with 4 samples.

Results

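The stefins and the late neutrophil granule genes are 10 mouse genes that were picked by name from the processed table: Stfa1, Stfa2, Stfa3 and Stfa2l1, the calprotectin pair S100a8 and S100a9, and Ngp, Camp, Ltf and Lcn2. All 10 were found, each as 1 of the 51826 features of the table, and all 10 were among the 11738 genes with enough counts to be tested. The cells were mouse bone marrow cells of the Lin-, c-kit+ fraction, which is enriched for haematopoietic stem and progenitor cells. In every sample they had been transduced with MLL-AF9, a fusion oncoprotein of acute myeloid leukaemia that holds myeloid cells at an immature stage. The label 2Week is shared by all samples, without saying from which event the time runs. Total RNA was sequenced from 2 samples labelled WT and 2 labelled Elovl6 KO. Elovl6 elongates long-chain fatty acids in the endoplasmic reticulum. How the KO allele was made is not in the labels, and neither is whether each replicate was its own animal or culture, so the p-values cover the spread of these libraries alone and that spread may be technical.

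Neutrophils make their granules in order. Azurophil granules with myeloperoxidase and serine proteases come first, in promyelocytes. Secondary granules, which carry lactoferrin (Ltf), lipocalin-2 (Lcn2), cathelicidin (Camp) and neutrophilic granule protein (Ngp), follow in myelocytes and metamyelocytes under the transcription factor C/EBP-epsilon. S100a8 and S100a9 encode the subunits of calprotectin, a cytosolic protein that binds calcium and zinc and is abundant in neutrophils and monocytes. Stefins are small intracellular inhibitors of cysteine cathepsins, and the mouse stefin A genes form a cluster of close copies that is expressed in myeloid cells.

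The copies are so alike that sequencing reads can be shared between them. The 4 stefins lie within 299 kb of chromosome 16 (mm10): Stfa2l1 at 36156811 to 36161948 and Stfa1 at 36277148 to 36285371 on the plus strand, Stfa2 at 36403946 to 36408363 and Stfa3 at 36450537 to 36455392 on the minus strand. An 81-base stretch of the coding sequence is shown for these 4 and for their neighbours BC100530 and Gm5483, as an example of how alike the copies are. Each line is an ungapped window from GENCODE vM21 transcripts, read 5′ to 3′, and capitals mark the bases that differ from Stfa1.
Stfa1: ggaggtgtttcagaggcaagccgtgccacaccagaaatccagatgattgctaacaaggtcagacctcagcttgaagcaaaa
BC100530: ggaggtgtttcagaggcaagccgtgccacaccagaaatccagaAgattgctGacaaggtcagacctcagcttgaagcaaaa
Stfa3: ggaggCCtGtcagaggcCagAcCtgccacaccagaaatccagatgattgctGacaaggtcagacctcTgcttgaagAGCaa
Stfa2: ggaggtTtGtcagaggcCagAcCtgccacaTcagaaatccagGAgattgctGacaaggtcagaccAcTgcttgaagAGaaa
Stfa2l1: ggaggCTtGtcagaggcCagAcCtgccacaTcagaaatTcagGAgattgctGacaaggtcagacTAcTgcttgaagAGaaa
Gm5483: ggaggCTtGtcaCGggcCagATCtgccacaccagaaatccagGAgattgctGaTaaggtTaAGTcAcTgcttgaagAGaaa
BC100530 differed from Stfa1 at 2 of the 81 bases, Stfa3 at 11, Stfa2 at 13, Stfa2l1 at 16 and Gm5483 at 21. The longest run of identical bases between the transcripts of Stfa1 and BC100530 was 100 bases, and between Stfa2 and Stfa2l1 it was 97. Stfa2 and Stfa2l1 were identical at 96.4% of their 309 aligned coding bases. Of all 50-base windows of the Stfa1 transcript, 25.4% were also found in another gene's transcript, against 15.9% for Stfa2, 24.6% for Stfa2l1 and 0 of 363 for Stfa3.

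The start sites of the 10 genes were also read from RefSeq promoter windows (GRCm38.p6, from 250 bases before the start of the gene to 50 after it), in which all 10 were found. Those of Stfa1, Stfa2, Ngp and Ltf are shown because they span the results: the called gene, a close copy that was not called, and the granule genes with the clearest ratio difference between the genotypes. Capitals mark matches to a C/EBP motif (TTNNGNAA) or a PU.1 motif (GAGGAA), searched on both strands, or to TATAAA on the strand of the gene.
Stfa1, chr16:36276898-36277197, plus strand: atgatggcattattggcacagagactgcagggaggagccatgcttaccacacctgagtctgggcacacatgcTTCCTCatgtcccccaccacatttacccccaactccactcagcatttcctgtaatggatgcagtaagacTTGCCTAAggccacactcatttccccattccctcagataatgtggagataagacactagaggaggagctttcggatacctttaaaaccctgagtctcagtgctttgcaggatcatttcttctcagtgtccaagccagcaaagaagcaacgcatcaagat
Stfa2, chr16:36408314-36408613, minus strand: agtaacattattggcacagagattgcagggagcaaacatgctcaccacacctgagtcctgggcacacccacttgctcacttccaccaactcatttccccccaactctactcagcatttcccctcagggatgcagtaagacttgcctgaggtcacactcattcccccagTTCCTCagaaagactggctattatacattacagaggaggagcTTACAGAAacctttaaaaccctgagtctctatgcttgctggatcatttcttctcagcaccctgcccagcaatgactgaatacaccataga
Ngp, chr9:110419558-110419857, plus strand: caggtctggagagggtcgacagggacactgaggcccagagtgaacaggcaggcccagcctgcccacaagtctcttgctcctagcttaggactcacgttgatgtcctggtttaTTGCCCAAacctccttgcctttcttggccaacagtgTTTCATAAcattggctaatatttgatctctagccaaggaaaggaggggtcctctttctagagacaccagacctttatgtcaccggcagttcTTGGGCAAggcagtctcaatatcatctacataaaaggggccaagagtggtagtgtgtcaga
Ltf, chr9:111019042-111019341, plus strand: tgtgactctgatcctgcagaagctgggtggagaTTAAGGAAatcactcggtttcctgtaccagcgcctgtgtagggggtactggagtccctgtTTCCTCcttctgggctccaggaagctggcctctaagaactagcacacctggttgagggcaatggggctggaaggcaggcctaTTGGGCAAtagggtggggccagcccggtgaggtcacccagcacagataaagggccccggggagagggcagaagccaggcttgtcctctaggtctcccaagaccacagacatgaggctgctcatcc
Stfa1 and Stfa2 were identical at 79.7% of their aligned promoter bases. Ngp and Ltf both hold the letters TTGGGCAA, which match the C/EBP motif, with the first base at offset -11 in Ngp and -75 in Ltf. Offset 0 is the first base of the gene in RefSeq. The deposited gene coordinates start further upstream, at 110419747 for Ngp and 111019271 for Ltf. By those starts the Ngp match lies inside the gene and the Ltf match before it. The C/EBP motif was found in 8 of the 10 windows, all but those of Stfa3 and Camp, and in 40.7% of 32851 promoters. The PU.1 motif was found in 7 of the 10, all but those of S100a9, Ngp and Camp, and in 28.3% of promoters. TATAAA was found in S100a8, with its first base at offset -30, in S100a9, at offset 0, and in 8.32% of promoters. In S100a8 it directly follows a PU.1 match without overlapping it.

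The libraries held 8986502 to 11941588 gene counts, so that 3 counts, the floor used here, equal 0.251 to 0.334 CPM (counts scaled to a library of 1000000). Elovl6 had 1290 and 1673 counts in the WT libraries and 17 and 34 in the KO libraries, as labelled. In the quasi-likelihood test of edgeR, 329 genes, or 2.8% of those tested, passed an adjusted p of 0.05, 214 higher and 115 lower in KO. Progenitor genes were present throughout, with Kit at 139.9 and 131 CPM in WT and 139 and 111 CPM in KO. Of the 7 listed leukaemia and progenitor genes, 6 had a negative fold change and none was called. In 5 of the 7 both KO libraries were below both WT libraries, against 27% of all tested genes. An unadjusted p under 0.05 in edgeR was reached by 4 of them, against 20.8% of all tested genes. B cell, T cell and erythroid markers summed to at most 16.5, 6.07 and 2.14 CPM, and Ms4a1, Cd3e, Cd8a and Hba-a1 had no counts in any library.

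Of the 10 genes only Stfa1 passed the test, and it was lower in KO. This 1 of 10 stands beside a background of 2.8% of all tested genes. Ltf was higher, by a narrow margin, and Stfa1 and Stfa2l1 were lower in both KO libraries than in both WT libraries, while the other 7 genes overlapped between the genotypes. Groups without overlap, in either direction, made up 53.8% of all tested genes, so 3 of 10 is fewer than the background share. An unadjusted p under 0.05 was reached by 3 of the 10, Stfa1, Stfa2l1 and Ltf, and by 20.8% of all tested genes. In the authors' deposited table, Stfa1 was again the only one of the 10 with a corrected p under 0.05, beside 1.71% of all features. The median log2 fold change of the 10 genes was 0.24, against -0.0037 over all tested genes, and the median of its absolute size was 0.48 against 0.14.

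**Figure D1:**
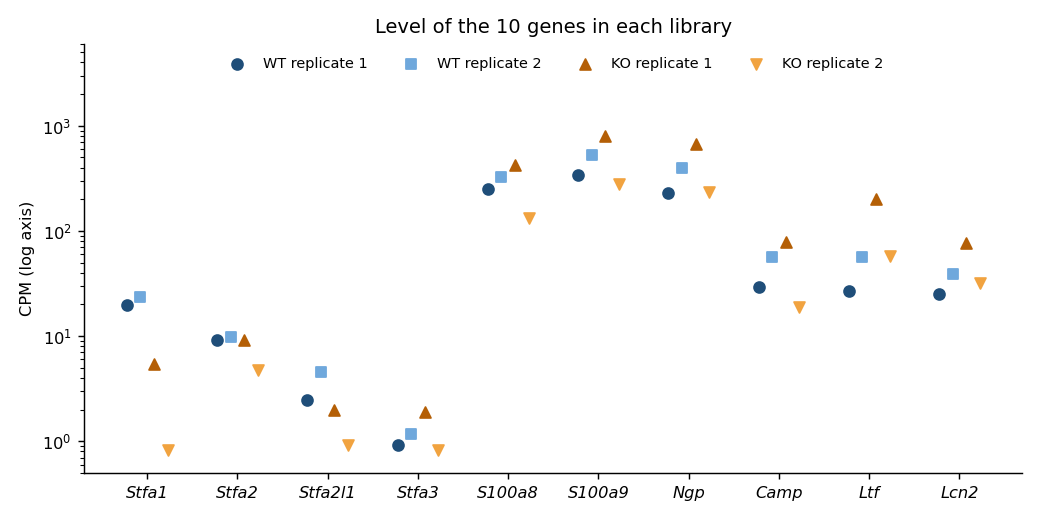
Level of each of the 10 genes in CPM, on a log axis, with 1 point per library and 2 libraries per genotype. Stfa1 and Stfa2l1 are lower in both KO libraries than in both WT libraries, and for every gene KO replicate 1 is above KO replicate 2 and WT replicate 2 above WT replicate 1.

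Stfa1 was the 1 stefin that passed the test. Its level was 19.7 and 23.6 CPM in the WT libraries and 5.45 and 0.824 CPM in the KO libraries, from 193, 282, 49 and 8 counts. Both KO libraries were low, and the second lay furthest from WT. The mean was 21.6 ± 2.81 CPM in WT and 3.14 ± 3.27 CPM in KO (SD, n = 2 each), 6.90-fold lower in KO. On the log2 scale the change was -2.81 (SE 0.53), and edgeR gave an adjusted p of 0.0466. In bulk RNA, fewer cells that express the gene and less RNA per cell cannot be told apart. The authors' deposited table gives a fold of -6.98 and a corrected p of 3.52e-04. The direction held whichever library was left out, but the adjusted p rose to 0.345 without WT replicate 1 and to 0.251 without WT replicate 2. Without KO replicate 1 the log2 fold change was -4.70 (adjusted p 1.12e-05), and without KO replicate 2 it was -1.99 (adjusted p 9.05e-04). The adjusted p was 0.213 with DESeq2 and 0.0652 when only genes with a mean of at least 10 CPM were tested.

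The difference of Stfa1 was as large in reads that were placed in 1 copy alone. Uniquely placed exon reads of Stfa1 numbered 173 of 245 in all in WT replicate 1 (70.6%, exact 95% interval 64.5 to 76.2) and 260 of 364 in WT replicate 2 (71.4%). In KO replicate 1 they numbered 44 of 57 (77.2%), and in KO replicate 2 they were 8 of 11 (72.7%, interval 39.0 to 94.0). The intervals of the 4 libraries overlap. The log2 fold change from edgeR was -2.82 on uniquely placed exon reads alone (adjusted p 0.0405) and -2.92 on all exon reads (adjusted p 0.0464). Uniquely placed intron reads of Stfa1 followed the same order, at 37 and 77 in WT and 15 and 1 in KO. Reads across its splice junctions numbered 48 and 79 in WT and 15 and 0 in KO.

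Stfa2 stood at 9.17 and 9.89 CPM in WT and 9.23 and 4.74 CPM in KO. KO replicate 1 lay between the WT libraries and only KO replicate 2 was low. Its log2 fold change was -0.46 (SE 0.30, adjusted p 0.440, edgeR), and without KO replicate 1 it was -1.01 (adjusted p 0.0298). Stfa2l1 had 2.44 and 4.52 CPM in WT and 2.00 and 0.927 CPM in KO, from 9 to 54 counts. Its groups did not overlap, yet its log2 fold change of -1.27 (SE 0.48) had an adjusted p of 0.199. Stfa3 was near the floor of detection, at 0.917 and 1.17 CPM in WT and 1.89 and 0.824 CPM in KO, and its 8 to 17 counts gave a log2 fold change of 0.35 (SE 0.51, adjusted p 0.751). Unique reads made up 90.9 to 97.9% of the exon reads of Stfa2, 85.7 to 100% of those of Stfa2l1 and all of those of Stfa3.

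The neighbour BC100530, which shares most sequence with Stfa1, was the most abundant gene of the cluster. It had 64.6 and 91.2 CPM in WT and 57.2 and 19.97 CPM in KO, with a log2 fold change of -1.03 (SE 0.41, adjusted p 0.217, edgeR). KO replicate 1 was little below the lower WT library, and KO replicate 2 was far below it. An annotated antisense gene, Gm15845, overlaps BC100530, and no use of strand in counting is stated. Gm15845 itself had 0 counts in every library. Gm5483 had 17.3 and 25.5 CPM in WT and 13.7 and 5.04 CPM in KO (log2 fold change -1.21, SE 0.40, adjusted p 0.154). Summed over the 14 features from Csta1 to Stfa3, the cluster gave 115 and 156 CPM in WT and 89.8 and 33.3 CPM in KO. Stfa1 made up 17.2 and 15.1% of that sum in WT and 6.06 and 2.48% in KO, while BC100530 made up 56.4 and 58.3% in WT and 63.6 and 60.1% in KO. No test was made of these shares, which were chosen after the values were seen.

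**Figure D2:**
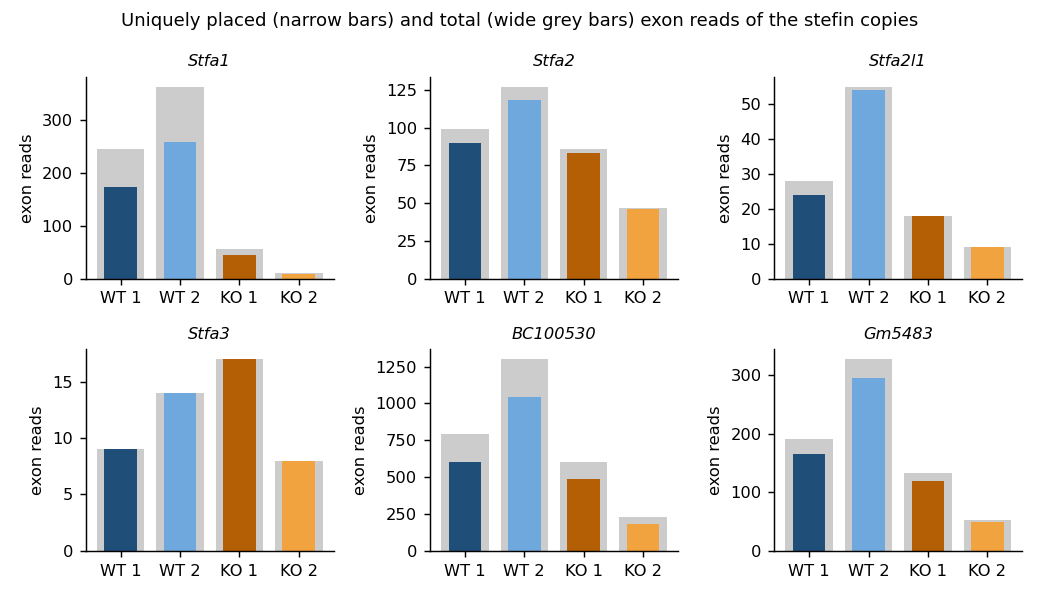
Exon reads of 6 stefin copies in each library, as uniquely placed reads (narrow bars) over all exon reads (wide grey bars), with a linear axis from 0 for each gene. For Stfa1 the unique reads run from 260 in WT replicate 2 to 8 in KO replicate 2, and the grey part above them is present in all 4 libraries.

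Among the other inhibitors of cysteine proteases and their targets, little passed the test. Of 11 listed stefin relatives, which include Stfa2l1 of the 10 genes, 8 were in the table and 6 tested. None passed an adjusted p of 0.05 in edgeR. At an unadjusted p under 0.05, which 20.8% of all tested genes reached, were 4 of the 6, of which Gm5483, Stfa2l1 and BC100530 had the smallest p and a negative fold change. The fourth was Cst3, the secreted inhibitor cystatin C, at 209 and 192 CPM in WT and 214 and 287 CPM in KO (adjusted p 0.219). The 11 listed cathepsins include serine and aspartic proteases besides the cysteine proteases that stefins bind. Of the 9 tested, 1 was called higher and none lower, beside 2.8% of all tested genes called in either direction. An unadjusted p under 0.05 in edgeR was reached by 6 of the 9, against 20.8% of all tested genes. In 7 of the 9 both KO libraries were above both WT libraries, against 26.8% of all tested genes. The median log2 fold change was 0.34 against -0.0037 over all genes. The called gene was Ctsd, an aspartic protease of lysosomes, at 164 and 169.8 CPM in WT and 221 and 230.1 CPM in KO (log2 fold change 0.43, SE 0.057, adjusted p 0.0185). Next came the cysteine proteases Ctss (log2 fold change 1.11, adjusted p 0.0507) and Ctsc (0.73, adjusted p 0.0561), which did not pass. All 9 were lower in KO replicate 1 than in KO replicate 2, the reverse of the stefins.

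The calprotectin genes did not separate the genotypes. S100a8 (chromosome 3, 90668978 to 90670035, plus strand) was at 250.02 and 329 CPM in WT and 429 and 133 CPM in KO. The KO libraries enclosed the WT libraries, one above both and one below both. The mean was 289.6 ± 55.9 CPM in WT and 281 ± 209 CPM in KO, and the log2 fold change was -0.05 (SE 0.45, adjusted p 0.964, edgeR). S100a9 (90692632 to 90695721, minus strand, 22.6 kb from S100a8) was at 341 and 529.6 CPM in WT and 799.9 and 279.8 CPM in KO. Its KO libraries also lay on either side of WT, with means of 435 ± 133 and 539.9 ± 368 CPM and a log2 fold change of 0.31 (SE 0.43, adjusted p 0.736). The called direction of S100a8 turned with the library left out. Without KO replicate 1 its log2 fold change was -1.13 (adjusted p 4.52e-04), and without KO replicate 2 it was 0.56 (adjusted p 0.0420). S100a9 had -0.64 (adjusted p 0.0538) and 0.88 (adjusted p 0.0292) in the same fits. Each of these fits sets 1 KO library against 2 WT libraries and assumes that it varies like them.

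The receptors of secreted calprotectin and of the granule proteins were measured beside them. Of 12 listed receptors 6 were tested and none passed in edgeR, with 3 at an unadjusted p under 0.05, beside 20.8% of all tested genes. These were Tlr4, a receptor of calprotectin (46.3 and 49.6 CPM in WT, 56.6 and 58.3 CPM in KO, adjusted p 0.152), Lrp1, which binds lactoferrin (191 and 312 CPM in WT, 340.02 and 559.8 CPM in KO, adjusted p 0.153), and Bsg, which binds S100A9 (262 and 249 CPM in WT, 276 and 306 CPM in KO, adjusted p 0.188). Of 12 other S100 genes 6 were tested and none passed, with 3 at an unadjusted p under 0.05, beside the same 20.8%, and 5 had no counts in any library. The 3 were S100a4 (3.26 and 3.52 CPM in WT, 7.23 and 18.5 CPM in KO, adjusted p 0.0708), S100a6 (3.77 and 2.43 CPM in WT, 6.56 and 12.7 CPM in KO, adjusted p 0.0716) and S100a10 (23.7 and 25.1 CPM in WT, 36.8 and 67.3 CPM in KO, adjusted p 0.0748). Both KO libraries were above WT for these 3 genes, and KO replicate 2 was the highest, where S100a8 and S100a9 had their lowest level.

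The secondary granule genes were likewise spread widely among the KO libraries. Ltf (chromosome 9, 111019271 to 111042767, plus strand), the iron-binding lactoferrin, was the gene of this kind with the largest difference. It was at 26.7 and 57.1 CPM in WT and 201 and 57.8 CPM in KO. KO replicate 1 stood far above the rest, and KO replicate 2 was level with WT replicate 2. The mean was 41.9 ± 21.5 CPM in WT and 129.6 ± 102 CPM in KO, with a log2 fold change of 1.61 (SE 0.57, unadjusted p 0.0256, adjusted p 0.177, edgeR). The authors' deposited table gives a fold of 3.06 and a corrected p of 0.366. Without KO replicate 2 the log2 fold change was 2.24 (adjusted p 0.00122), and without KO replicate 1 it was 0.45 (adjusted p 0.398).

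Ngp (chromosome 9, 110419747 to 110423012, plus strand), a granule protein related to the cystatins and cathelicidins, was at 232 and 398 CPM in WT and 665 and 233 CPM in KO. The second KO library had the level of the first WT library. Its log2 fold change was 0.51 (SE 0.45, adjusted p 0.575, edgeR). Camp (chromosome 9, 109847379 to 109849617, minus strand), the precursor of the antimicrobial peptide cathelicidin, was at 29.2 and 56.7 CPM in WT and 79.2 and 18.9 CPM in KO. The KO libraries were the highest and the lowest of the 4, and the log2 fold change was 0.17 (SE 0.58, adjusted p 0.898). Lcn2 (chromosome 2, 32384633 to 32388252, minus strand), which binds bacterial siderophores, was at 25.2 and 38.7 CPM in WT and 76.8 and 32.1 CPM in KO. KO replicate 2 lay between the WT libraries, and the log2 fold change was 0.76 (SE 0.38, adjusted p 0.319). Without KO replicate 2 the log2 fold changes of Ngp and Lcn2 were 1.07 (adjusted p 0.0253) and 1.26 (adjusted p 0.00510). Without KO replicate 1 that of Camp was -1.19 (adjusted p 0.0340), and those of Ngp and Lcn2 were -0.44 and -0.0018.

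**Figure D3:**
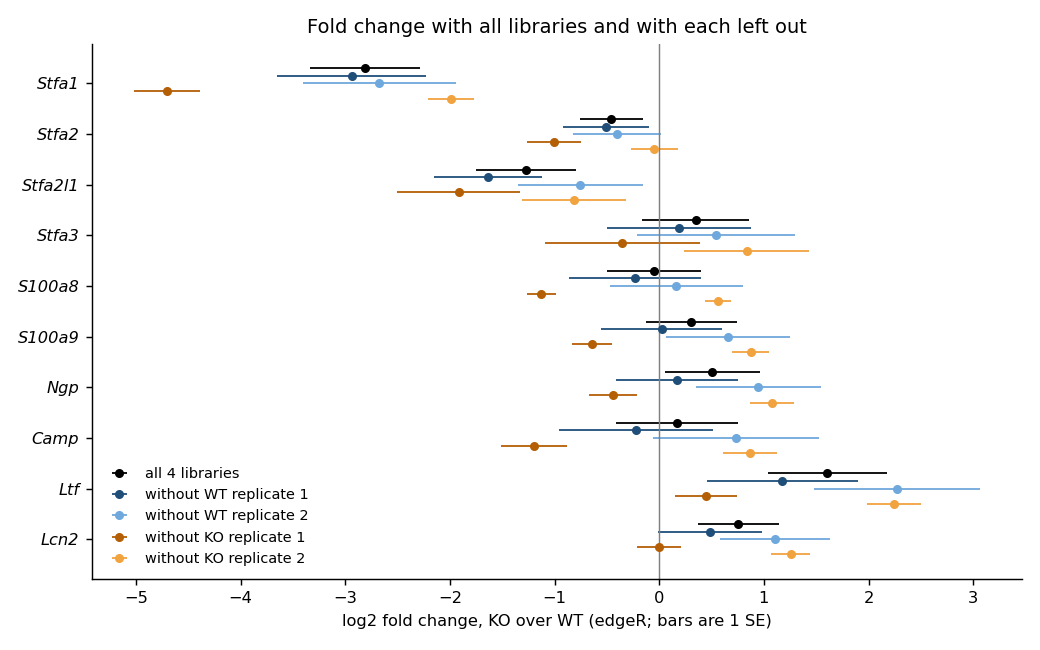
Log2 fold change of KO over WT from edgeR for each of the 10 genes, with all 4 libraries (black) and with 1 library left out (colours), where bars are 1 SE. Stfa1 stays below 0 in each fit, Ltf stays above 0, and S100a8 is at -1.13 without KO replicate 1 and 0.56 without KO replicate 2.

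Compared per length of exon, in the authors' RPKM (reads scaled to exon length and library size, which here count all exon reads including multi-mapped ones), calprotectin and Ngp led in both genotypes. In WT, S100a9 had a level of 399 ± 128 RPKM, S100a8 199 ± 41.7 RPKM and Ngp 123 ± 48.0 RPKM. Stfa1 followed at 31.7 ± 4.997 RPKM and Camp at 27.2 ± 12.7 RPKM, and then Stfa2 at 11.7 ± 0.637 RPKM. Lcn2 and Ltf were level at 5.83 ± 1.84 and 5.82 ± 3.08 RPKM, above Stfa2l1 at 4.31 ± 1.503 RPKM and Stfa3 at 1.21 ± 0.230 RPKM. S100a9 was above S100a8, S100a8 above Ngp, Camp above Stfa2 and Stfa2 above Lcn2 in both WT libraries. Stfa1 and Camp overlapped between the WT libraries, as did Lcn2, Ltf and Stfa2l1. In KO, Stfa1 stood at 7.36 and 1.30 RPKM, below Stfa2 at 10.97 and 5.48 RPKM in each library, while Ltf stood at 28.4 and 8.02 RPKM, above Lcn2 at 14.2 and 5.87 RPKM.

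Every one of the 10 genes was higher in KO replicate 1 than in KO replicate 2, against 48.1% of all tested genes. The difference in log2 CPM ran from 0.93 to 2.47 with a median of 1.51, and it exceeded 1 in 8 of the 10 genes, against 1.43% of all tested genes. Counted as a ratio of CPM, KO replicate 1 over KO replicate 2 was 3.22 for S100a8 (exact 95% interval 3.02 to 3.43), 2.86 for both S100a9 and Ngp, 3.49 for Ltf, 4.18 for Camp and 2.39 for Lcn2. For Stfa1 it was 6.62 (3.11 to 16.2) and for Stfa2 1.95 (1.34 to 2.86), while the intervals of Stfa3 and Stfa2l1 included 1. In the WT libraries all 10 were higher in replicate 2, against 49.7% of all tested genes. The median difference was 0.63 in log2 CPM, up to 2.14-fold for Ltf, and the intervals of Stfa1, Stfa2 and Stfa3 included 1. The biological coefficient of variation that edgeR estimated had a median of 0.305 for these genes and 0.0797 over all tested genes. Intervals and floors cover counting error only.

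Markers of other cells moved between the KO libraries as well. The summed level of 14 monocyte and macrophage markers was 1522 and 1515 CPM in WT, 1802 CPM in KO replicate 1 and 2427 CPM in KO replicate 2. Of the 13 tested, 12 were higher in KO replicate 2 than in replicate 1, and 11 were higher in both KO libraries than in both WT libraries, against 26.8% of all tested genes. None of the 13 passed an adjusted p of 0.05 in edgeR, and 10 had an unadjusted p under 0.05, against 20.8% of all tested genes. The summed level of 9 eosinophil markers was 409.9 and 95.5 CPM in WT and 54.1 and 19.7 CPM in KO, with Ccr3 at 0 in all libraries. Of the 7 tested, none was called, and the median log2 fold change was -2.63. Both KO libraries were below both WT libraries in 5 of the 7, against 27% of all tested genes. An unadjusted p under 0.05 in edgeR was reached by 5, against 20.8%. All 7 were higher in KO replicate 1 than in KO replicate 2, against 48.1%, and none was higher in WT replicate 2. The summed level of 11 neutrophil markers, 6 of them among the 10 genes, was 1006 and 1523 CPM in WT and 2411 and 959 CPM in KO. Of these 11 markers, Ly6g was at 2.24 and 2.26 CPM in WT and 3.002 and 1.24 CPM in KO. Cxcr2 was at 0.713 and 2.51 CPM in WT and 2.67 and 1.34 CPM in KO. Others of the 11 were higher, such as Cd177 at 27.0 to 72.9 CPM and Mmp8 at 58.8 to 175 CPM over the libraries. The part of these other cells in the levels of the 10 genes was not tested.

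**Figure D4:**
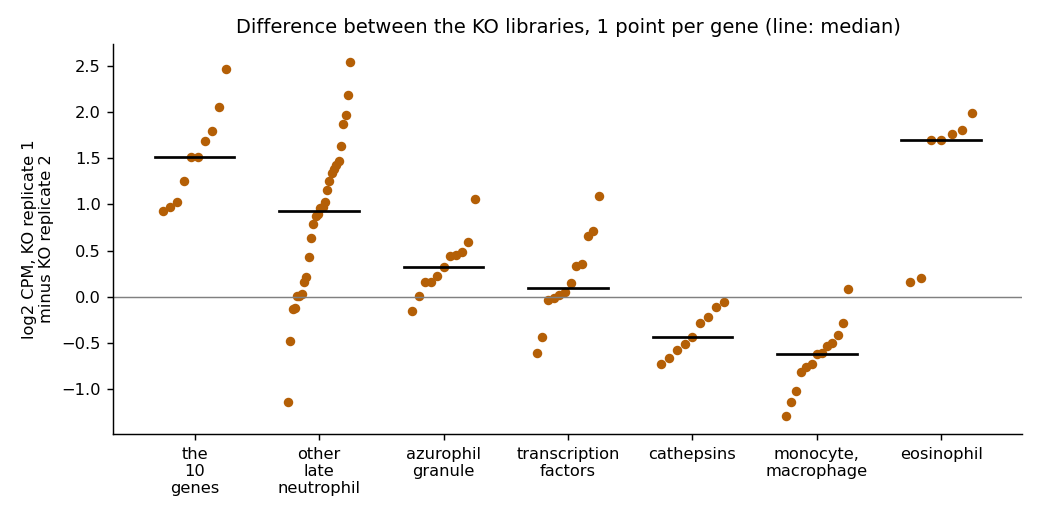
Difference in log2 CPM between KO replicate 1 and KO replicate 2, with 1 point per tested gene and a line at the median of each list. The medians are 1.51 for the 10 genes, 0.93 for the other late neutrophil genes and 1.70 for the eosinophil markers. They are 0.32 for the azurophil granule genes, 0.099 for the transcription factors, -0.43 for the cathepsins and -0.62 for the monocyte and macrophage markers.

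Other genes of late neutrophils mostly shared the order of the KO libraries but not that of the WT libraries. Of 39 listed genes of secondary and tertiary granules and late neutrophils, which include Stfa2l1, 37 were in the table and 28 tested, and 24 of the 28 were higher in KO replicate 1, against 48.1% of all tested genes. In WT, 15 of the 28 were higher in replicate 2, against 49.7% of all tested genes. The median difference between the KO libraries was 0.93 in log2 CPM. Across genotypes 1 of the 28 was called higher and none lower, beside 2.8% of all tested genes called in either direction. The median log2 fold change was 0.20. The called gene was Adam8, a membrane metalloprotease of myeloid cells, at 4.89 and 7.88 CPM in WT and 17.9 and 25.02 CPM in KO (log2 fold change 1.73, SE 0.26, adjusted p 0.0282, edgeR). Slpi, a secreted protease inhibitor (51.5 and 51.4 CPM in WT, 65.5 and 71.7 CPM in KO, adjusted p 0.0519), and Anxa1 (35.2 and 29.7 CPM in WT, 47.9 and 42.8 CPM in KO, adjusted p 0.0817) came next.

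Several of these genes were picked out after their values were seen, to show both patterns within the list. Cd177, a surface protein of neutrophils, ran with the granule genes, at 31.5 and 49.4 CPM in WT and 72.9 and 27.0 CPM in KO. Chil3 was at 43.5 and 51.95 CPM in WT and 54.5 and 20.7 CPM in KO, which overlap. Mmp8, the neutrophil collagenase, went the other way and was highest in KO replicate 2, at 66.9 and 58.8 CPM in WT and 79.4 and 175 CPM in KO (adjusted p 0.138). Mmp9, the gelatinase of tertiary granules, was highest in KO replicate 1, at 2.34 and 2.43 CPM in WT and 8.67 and 1.75 CPM in KO (adjusted p 0.387).

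Genes of the earlier azurophil granules had mostly negative fold changes, 8 of the 11 tested. Of 12 listed 11 were tested, and 1 was called lower and none higher, beside 2.8% of all tested genes called in either direction. The median log2 fold change was -0.44. Of the 11, 10 were higher in KO replicate 1 than in KO replicate 2, against 48.1% of all tested genes. The called gene was Plac8, which is expressed in myeloid cells, at 558 and 453 CPM in WT and 353 and 316 CPM in KO (log2 fold change -0.59, SE 0.11, adjusted p 0.0423, edgeR). Srgn, the proteoglycan core of granules, followed at 564 and 501 CPM in WT and 434 and 320.2 CPM in KO (adjusted p 0.104). Elane, neutrophil elastase, was at 1956 and 1834 CPM in WT and 1595 and 1137 CPM in KO (adjusted p 0.127). In 7 of the 11 both KO libraries were below both WT libraries, against 27% of all tested genes. An unadjusted p under 0.05 in edgeR was also reached by 7 of the 11, against 20.8% of all tested genes.

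The transcription factors of granulocytes did not pass the test. None of the 12 was called in edgeR, 1 had an unadjusted p under 0.05 (20.8% of all tested genes had), and the median log2 fold change was 0.016. The smallest p belonged to Irf8, a factor of monocyte fate, at 55.3 and 61.6 CPM in WT and 66.05 and 100.7 CPM in KO (adjusted p 0.180). Gfi1, which favours granulocytes, had 193 and 182 CPM in WT and 169.6 and 103 CPM in KO (adjusted p 0.241), and Runx1 had 272 and 320.2 CPM in WT and 313 and 423 CPM in KO (adjusted p 0.268). Cebpe, which encodes the factor of secondary granule genes and was chosen for that role after its values were seen, was at 58.5 and 58.3 CPM in WT and 59.4 and 27.7 CPM in KO (adjusted p 0.457). It was low in KO replicate 2 alone. That library had the lowest S100a8, S100a9 and Camp, but not the lowest Ngp, Lcn2 or Ltf. Ngp was at 233 CPM there and 232 CPM in WT replicate 1. Lcn2, at 32.1 CPM, lay between the WT libraries, and Ltf, at 57.8 CPM, lay above both. A link between Cebpe and these genes was not tested.

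Ratios between the genes within a library do not depend on how the libraries were scaled, and several lay apart by genotype where the levels overlapped. Per 100 counts of Ngp, Ltf had 11.5 and 14.3 counts in WT and 30.3 and 24.8 counts in KO. Both KO libraries were high despite their different levels, with exact 95% intervals of 28.7 to 31.9 and 22.6 to 27.2, against 13.2 to 15.5 in the higher WT library. Per 100 counts of S100a9, S100a8 had 73.2 and 62.2 counts in WT and 53.6 and 47.5 counts in KO, and the intervals did not overlap between the genotypes. Camp per 100 counts of Ngp was 12.6 and 14.2 in WT and 11.9 and 8.13 in KO, and Lcn2 per 100 counts of Ngp was 10.8 and 9.72 in WT and 11.6 and 13.8 in KO. Those values lay apart by genotype, but the intervals of the nearest libraries overlapped. S100a9 per 100 counts of Ngp was 147 and 133 in WT and 120.3 and 120.2 in KO.

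The stefins were set against the granule genes in the same way. Stfa1 per 100 counts of Ngp was 8.48 and 5.93 in WT and 0.819 and 0.354 in KO, and per 100 counts of S100a8 it was 7.86 and 7.18 in WT and 1.27 and 0.619 in KO. BC100530 per 100 counts of Ngp was 27.8 and 22.9 in WT and 8.59 and 8.58 in KO, nearly equal in the KO libraries. Gm5483 was 7.47 and 6.40 in WT and 2.06 and 2.17 in KO on the same scale, and Stfa2l1 was 1.05 and 1.14 in WT and 0.301 and 0.398 in KO. Stfa2 per 100 counts of Ngp was 3.95 and 2.48 in WT and 1.39 and 2.03 in KO, and its counting intervals overlapped between WT replicate 2 (2.05 to 2.98) and KO replicate 2 (1.48 to 2.72). Stfa1 per 100 counts of Stfa2 was 214 and 239 in WT and 59.0 and 17.4 in KO. Against its own neighbour, Stfa1 was at 30.4 and 25.9 counts per 100 of BC100530 in WT and 9.53 and 4.12 in KO. These 13 ratios were chosen after the values were seen and were not tested. All 13 lay apart by genotype, but most of them share Ngp or Stfa1 and so are not separate observations. The levels of single genes lay apart in 53.8% of all tested genes, and the share among other gene pairs was not measured. With 2 libraries a group, the smallest p that a two-sided exact permutation test of a single ratio can give is 1 in 3.

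**Figure D5:**
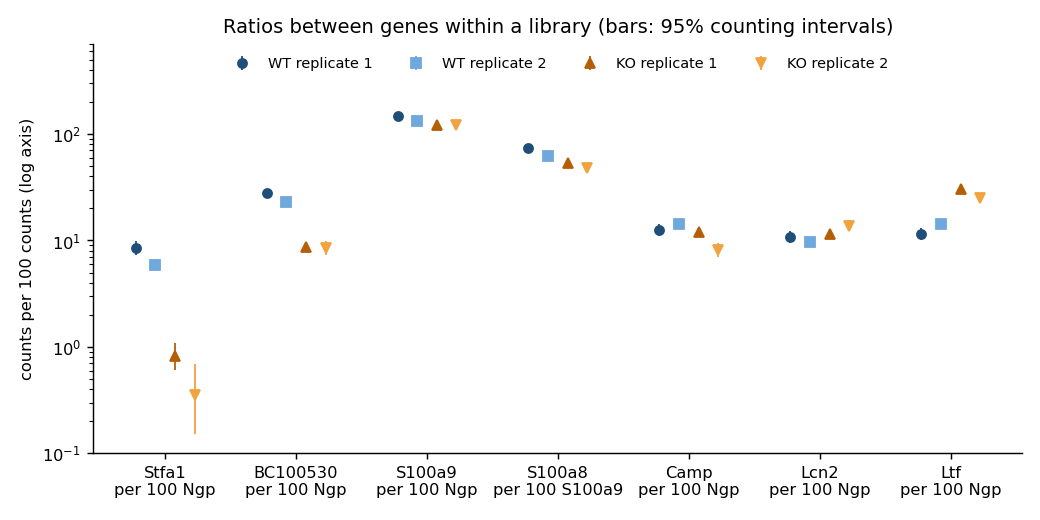
Ratios of counts between genes within each library, per 100 counts of the second gene, on a log axis with exact 95% counting intervals. Ltf per 100 Ngp is at 24.8 or above in both KO libraries and at 14.3 or below in both WT libraries, and Stfa1 and BC100530 per 100 Ngp are lower in both KO libraries.

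Across the 4 libraries, the genes whose pattern was nearest to the mean of the 10 were found by the root mean square distance of centred log2 CPM, among 11611 genes with a mean of at least 1 CPM. They were Lipg, endothelial lipase (distance 0.0849), Zfp773 (0.136), Mogat2 (0.138), Mmp25 (0.140) and Pglyrp1 (0.140), and Mmp25 and Pglyrp1 are on the late neutrophil list. Lipg was at 66.9 and 90.8 CPM in WT and 126 and 40.2 CPM in KO, the order of libraries seen for S100a8. Genes with predicted or clone names, such as Gm plus digits and Rik, are among the 11611 but were passed over in naming the nearest. With only 4 libraries the distances are a description.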

How the data were processed

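RNA was extracted with Trizol and directional NEBNext Ultra libraries were made, per the labels' protocols. Counts per gene were deposited by the authors for 4 libraries against mm10, per the submitters' processing notes, with unique, total, junction and intron reads in other columns, per the file headers. No source used here names the aligner, the counter or a strand setting. The deposited counts were 96.0 to 96.2% uniquely placed. The RPKM values are the authors', and in 100% of 11709 genes they matched exon length and total exon reads within 1%. The p-values, corrected p-values and signed fold scores of an EDGE test are also deposited by the authors, per the file headers. Another 36 per-sample columns were not used.

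Low genes were removed by filterByExpr at a minimum count of 10 and a minimum total of 15. After TMM scaling, with factors of 0.995 to 1.00, the quasi-likelihood test of edgeR 4.0.16 was run in R 4.3.3 without a replicate block, and p was adjusted by Benjamini-Hochberg over 11738 genes. The test was tried on simulated counts. Limma 3.58.1 and DESeq2 1.42.0 served as alternatives. Replicates differed beyond sampling noise (chi-square per degree of freedom 4.42 in WT, 6.54 in KO). Intervals are Clopper-Pearson at 95%. Sequences came from RefSeq and GENCODE.

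The 10 genes and all lists were chosen with earlier results of these data known. All 10 are named. From each list the genes past an adjusted p of 0.05 are named, or the smallest p up to 3. Cstdc4, Cstdc5, Cstdc6, Itgam and Chi3l1 were listed and are not analysed here, and 1 cell type marker is not reported here.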

Additional observations from a re-analysis of the deposited data

How the results depend on the processing

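The 10 genes gave 127 results under alternatives, of which 103 kept their direction and their side of the threshold. RLE and upper quartile scaling, uniquely placed exon reads and total exon reads left all 10 as they were. Where low counts were not filtered, 6 of the 10 were called, against 1. Testing genes of at least 10 CPM on average called 0, with Stfa2, Stfa3 and Stfa2l1 not tested, and DESeq2 called 0. Over all genes 329 were called, and 1677 without the filter, 112 at 10 CPM and 875 with the replicate block. The cause was not tested. With 1 library left out, 14 to 1449 genes and 0 to 6 of the 10 were called, and a lone library was assumed to vary like the other group. As log2 fold changes with 1 library left out, Camp ranged from -1.19 to 0.87, S100a8 from -1.13 to 0.56, S100a9 from -0.64 to 0.88, Ngp from -0.44 to 1.07, Lcn2 from -0.0018 to 1.26 and Stfa3 from -0.35 to 0.84. The sign turned for Camp without WT replicate 1 (-0.22) or KO replicate 1 and with limma-voom (-0.14), for S100a8 without WT replicate 2 (0.16) or KO replicate 2, and for Stfa3, S100a9, Ngp and Lcn2 without KO replicate 1.

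The labels number the replicates 1 and 2 in both genotypes, without saying that a number marks a shared animal or day. Deviations of same-numbered libraries correlated at r = 0.0940 over 11738 genes, and with 2 pairs this does not settle whether the numbers pair the libraries. They were not taken as pairs. With the replicate block, 1 of the 10 genes was called, Stfa1, at a log2 fold change of -2.87 (adjusted p 0.0185, edgeR). Depth limits Stfa3 and Stfa2l1, with 8 to 54 counts a library.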
